A study of Rattus norvegicus with 11 samples.

Results

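Serpins are a family of structurally related proteins, most of which inhibit serine proteases. The members studied here were the genes of the family with a symbol of clades A to I followed by a number, without the collagen chaperone Serpinh1 and the placental copy Serpinb9d, and with 1 array row per gene. By this rule 34 of the 14506 genes measured with 1 symbol were members: 13 of clade A, 13 of clade B, 2 each of clades F and I, and 1 each of clades C, D, E and G. Each member had 1 row on the array, and all 34 matched RefSeq by gene identifier under the same symbol. A further 2 rows that carry several serpin symbols were not used.

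The 11 arrays, of the Affymetrix design Rat Gene 1.0 ST, followed the rat embryonic stem cell line DAc2 as it was converted into cells that the labels call cHypoSCs. All groups came from this 1 line. In the feeder start, stem cells had been kept in N2B27 medium with 3 µM CHIR99021, a GSK3 inhibitor, and 0.5 µM PD0325901, a MEK inhibitor, on mouse embryonic fibroblast layers. In the feeder-free start they had been kept on laminin with the same 3 µM CHIR99021, with PD0325901 at 2 µM, and with BMP4, a signalling protein of human sequence, at 5 ng/mL, so that layer, inhibitor dose and BMP4 cannot be told apart in any comparison of the 2 cultures. Day 0 is the stem cells themselves; days 7, 17 and 32 are cells in a rat multipotent adult progenitor medium with LIF, EGF, PDGF and 2% serum. The feeder start gave 1 array on each of the 4 days, and the feeder-free start gave 1 on day 0 and 2 each on days 7, 17 and 32. The labels name the pairs as biological replicates, and whether each array had a culture of its own is not stated. P-values therefore rest on these 11 arrays alone, and the spread within pairs may be technical.

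An inhibitory serpin presents a loop that its protease cuts, and the cut traps the protease in a covalent complex. Clade A holds mostly plasma proteins made by the liver, among them inhibitors such as alpha-1-antitrypsin and carriers of hormones. Clade B serpins lack a classical signal peptide and act mainly inside cells, where several guard against proteases released from granules or lysosomes. The remaining clades hold secreted inhibitors of clotting, plasminogen activation and complement, and Serpinf1, which has lost inhibitory activity. In the rodent embryo, serpins and urokinase are known from the trophoblast and the extraembryonic endoderm that surround it.

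The values are log2 expression values made by RMA and deposited by the authors, and all changes below are differences on that log2 scale. The arrays shared a median of 8.97, and the feeder-free pairs correlated at r = 0.9966, 0.9975 and 0.9977 over the 14506 genes. Olfactory and vomeronasal receptor genes, taken as genes without expression here, had a 95th percentile of 8.10 over 1240 genes, which serves as the level below which a change may be understated. Of the genes that mark the hypoblast, an early extraembryonic endoderm, 7 of 7 rose by day 32, beside 17.4% of all genes. Of the pluripotency markers 3 of 5 fell (Nanog, Sox2 and Esrrb), beside 13.7% of all genes, while Klf4 rose and Pou5f1 did not pass. Changes were tested with limma over all 14506 genes, with terms for day and culture, and called at a Benjamini-Hochberg adjusted p under 0.05. In this fit the spread behind a p-value holds differences within pairs and differences between the cultures in their changes over the days. A gene whose course differed between the cultures therefore has a wide SE and can fail to pass. In bulk RNA, more cells of a type and more RNA per cell cannot be told apart.

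Wide differences between groups were found in a few serpins. The means of the 8 culture and day groups spanned at least 2 in 8 members: Serpinb1a, Serpinb5, Serpinb6a, Serpinb6b and Serpinb9 of clade B, Serpine2, Serpinf1 and Serping1. That is 23.5% of the members, beside 10.7% of all genes, whereas the median span was 0.53 over the members and 0.73 over all genes. Serpine2, with a span of 2.05, was the member closest above this limit, and Serpina9, with 1.12, the closest below it. Clade A had 0 of its 13 members in the group, and clade B had 5 of 13.

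**Figure D1:**
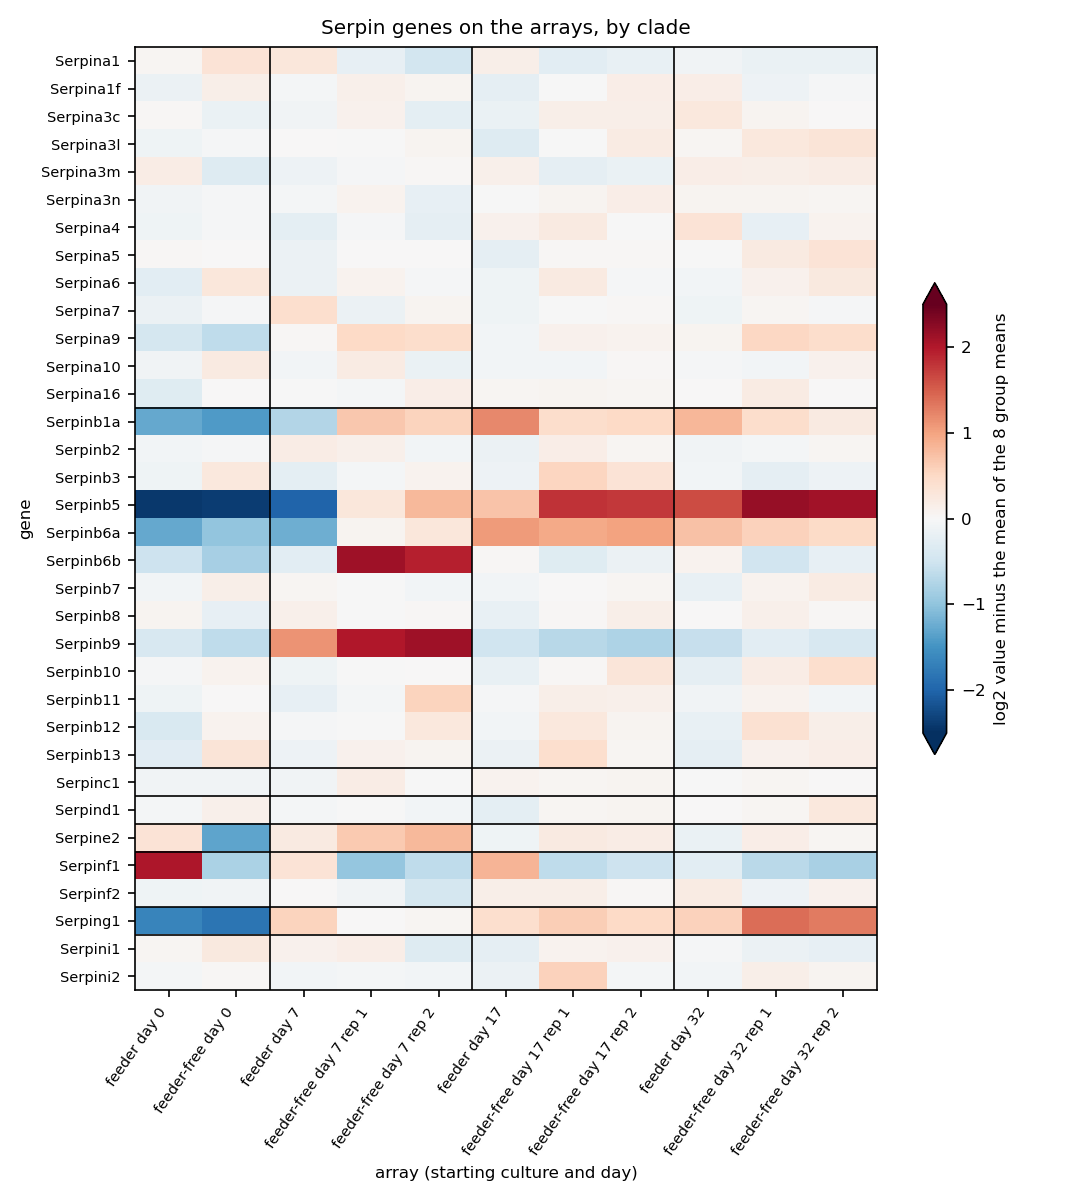
Each row is a serpin gene, grouped by clade, and each column is an array, 11 in all, the feeder start left of the feeder-free start within each day. Colour gives the array value minus the mean of the gene's 8 group means (log2). Strong colour is limited to the 8 genes with spans of at least 2, and the 13 clade A rows stay pale, with a widest span of 1.12 in Serpina9.

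The clade B genes divided by position. RefSeq places 4 of the clade B members on chromosome 17 and 9 on chromosome 13. All 4 on chromosome 17 were among the 8 genes with a wide span, and Serpinb9, Serpinb6b and Serpinb1a follow one another there as consecutive coding genes. On chromosome 13 only Serpinb5 was among them, and the other 8 genes lay between 5.51 and 7.51 on every array with spans of 0.32 to 0.68. The chromosome 17 cluster holds near-identical copies in rodents, so probes of Serpinb6a, Serpinb6b, Serpinb9 and Serpinb1a may also read related copies, and their values are uncertain to that extent.

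The start regions of 4 clade B genes are printed because their time courses, given below, differ although 3 of them lie in the same cluster. They are RefSeq windows on GRCr8, from 250 bases before to 50 bases after the start, read 5′ to 3′ on the gene's strand. Serpinb9 is at chr17:31640767-31641066 on the minus strand and Serpinb6b at chr17:31683885-31684184 on the minus strand. Serpinb6a, in the first of its 2 windows, is at chr17:31076561-31076860 on the plus strand, and Serpinb5 is at chr13:23499953-23500252 on the plus strand. Capitals mark a match to TTCNNNGAA, a motif of STAT factors, which LIF activates.
Serpinb9: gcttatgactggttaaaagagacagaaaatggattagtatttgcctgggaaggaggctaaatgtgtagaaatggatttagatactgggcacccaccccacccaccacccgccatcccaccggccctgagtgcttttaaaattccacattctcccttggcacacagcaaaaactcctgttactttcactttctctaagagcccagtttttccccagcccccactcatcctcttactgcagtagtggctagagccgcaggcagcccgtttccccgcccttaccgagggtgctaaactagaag
Serpinb6b: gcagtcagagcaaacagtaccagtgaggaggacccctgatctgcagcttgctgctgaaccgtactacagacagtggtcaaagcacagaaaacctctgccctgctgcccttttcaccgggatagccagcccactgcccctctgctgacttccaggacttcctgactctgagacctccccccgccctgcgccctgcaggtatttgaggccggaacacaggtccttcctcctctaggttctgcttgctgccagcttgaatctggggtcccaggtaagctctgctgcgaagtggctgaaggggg
Serpinb6a: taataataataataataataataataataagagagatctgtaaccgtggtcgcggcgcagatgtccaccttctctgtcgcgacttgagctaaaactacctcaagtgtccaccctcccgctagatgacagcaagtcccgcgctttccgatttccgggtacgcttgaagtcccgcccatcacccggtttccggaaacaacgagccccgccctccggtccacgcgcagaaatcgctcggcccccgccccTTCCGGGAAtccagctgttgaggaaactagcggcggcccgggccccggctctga
Serpinb5: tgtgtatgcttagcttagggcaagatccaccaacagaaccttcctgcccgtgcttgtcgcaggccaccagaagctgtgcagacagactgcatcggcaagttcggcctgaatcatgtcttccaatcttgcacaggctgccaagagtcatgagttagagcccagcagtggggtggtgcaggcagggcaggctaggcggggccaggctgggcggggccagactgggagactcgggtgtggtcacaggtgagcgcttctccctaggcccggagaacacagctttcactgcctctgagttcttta
Windows were found for 27 of the 34 members, 28 windows in all, and for 7 of the 8 wide-span genes, 8 windows in all. On either strand, TTCNNNGAA was in 1 of these 8 windows, the Serpinb6a window printed above, in 3 of the 28 and in 8.9% of all 33469 windows. The GATA motif AGATAA was in 0 of the 8, 6 of the 28 and 11.6% of all windows. The AP-1 motif TGACTCA was in 0 of the 8, 2 of the 28 and 4.6% of all windows. The 3 motifs do not contain one another, and a match describes letters in the window only.

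Serpinb9, which inhibits granzyme B, peaked at day 7. On the feeder start it measured 10.02, 11.53, 9.91 and 9.84 on days 0, 7, 17 and 32. The feeder-free start measured 9.78 on day 0, 12.41 and 12.54 on day 7, 9.72 and 9.65 on day 17, and 10.16 and 10.01 on day 32. The day 7 arrays of both cultures lay above every array of the other days. Serpinb9 rose by 2.22 ± 0.25 (SE) at day 7 over day 0 (limma adjusted p = 0.0014) and fell by 2.40 ± 0.22 at day 17 over day 7 (limma adjusted p = 0.0013). Both calls were kept without any 1 array.

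Serpinb6b, a rodent relative of SERPINB6, showed a day 7 peak on the feeder-free start. On the feeder start it measured 7.91, 8.17, 8.45 and 8.51 on days 0, 7, 17 and 32. The feeder-free arrays measured 7.60 on day 0, 10.54 and 10.37 on day 7, 8.12 and 8.28 on day 17, and 7.94 and 8.22 on day 32. All arrays but the feeder-free pair of day 7 lay between 7.60 and 8.51. Its change at day 7 over day 0 did not pass with both cultures together (1.88 ± 0.58, limma adjusted p = 0.0595). In a limma fit of the feeder-free arrays alone it rose by 2.86 ± 0.15 by day 7 and fell by 2.25 ± 0.12 by day 17 (adjusted p = 1.93e-09 and 9.28e-09). The spread in that fit comes from the pairs of days 7, 17 and 32, and the single array of day 0 is assumed to vary like them.

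A copy of the same cluster that was not a member, Serpinb9d, measured 7.77 on the feeder start and 10.45 and 10.50 on the feeder-free start at day 7, and between 5.62 and 6.34 on every array of the other days. Trophoblast markers were raised on the same arrays: the mean of the 9 measured was 10.12 on the feeder start and 11.92 and 12.02 on the feeder-free start at day 7, and 8.40 to 8.91 on the other days. Of these 9 markers, 6 rose and 1 fell at day 7 over day 0, where 6.74% of all genes rose and 9.27% fell, and 0 rose and 7 fell at day 17 over day 7, where 9.1% rose and 3.65% fell. The 1 that fell at day 7 was Cdx2, an early trophoblast and gut regulator (−2.55 ± 0.60, limma adjusted p = 0.0247), a call lost without either feeder-free array of day 7. Elf5, a trophoblast transcription factor, stood at 11.97 on the feeder array and 12.59 and 12.61 on the feeder-free arrays of day 7, against 8.92 and 9.04 on the feeder and feeder-free arrays of day 0. Their part in the Serpinb9 and Serpinb6b peaks was not tested.

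Serpinb5, known as maspin, is a clade B serpin of epithelia without protease-inhibiting activity, and it had the widest span of any member, 4.55. On the feeder start it measured 6.32, 6.73, 9.46 and 10.37 on days 0, 7, 17 and 32. In feeder-free cells it measured 6.37 on day 0, 9.02 and 9.55 on day 7, 10.54 and 10.50 on day 17, and 10.91 and 10.84 on day 32. Both cultures began below the receptor level, and the feeder array was below the feeder-free arrays on each day. Serpinb5 rose by 4.18 ± 0.48 at day 32 over day 0 (limma adjusted p = 0.000519), a call kept without any 1 array.

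Serpinb6a, whose human counterpart inhibits cathepsin G, and Serpinb1a, a leukocyte elastase inhibitor, ended the conversion higher than they began. Serpinb6a measured 9.90, 9.95, 12.23 and 11.91 on the feeder start on days 0, 7, 17 and 32. In feeder-free cells it measured 10.19 on day 0, 11.25 and 11.45 on day 7, 12.12 and 12.19 on day 17, and 11.75 and 11.66 on day 32. The feeder array of day 7 was still at the day 0 level, whereas the day 17 arrays of both cultures lay close together, between 12.12 and 12.23. Serpinb1a measured 8.52, 9.08, 11.01 and 10.64 on the feeder start, and on the feeder-free start 8.39 on day 0, 10.48 and 10.37 on day 7, 10.25 and 10.31 on day 17, and 10.25 and 10.03 on day 32. It was lower on the feeder array at day 7 and higher on it at days 17 and 32. At day 32 over day 0, Serpinb6a rose by 1.66 and Serpinb1a by 1.85 (limma adjusted p = 0.0056 and 0.01). Both calls were lost without the feeder-free day 0 array, and that of Serpinb1a also without the feeder day 32 array.

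Serping1 encodes C1 inhibitor, which blocks the proteases C1r, C1s and plasma kallikrein, and it rose in both cultures. On the feeder start it measured 7.92, 10.13, 9.98 and 10.15 on days 0, 7, 17 and 32. The feeder-free arrays gave 7.75 on day 0, 9.59 and 9.62 on day 7, 10.19 and 10.07 on day 17, and 10.97 and 10.87 on day 32. Day 0 lay below the receptor level in both cultures and every later array lay above it. Serping1 rose by 1.93 ± 0.25 at day 7 over day 0 (limma adjusted p = 0.00276) and by 2.82 ± 0.25 at day 32 over day 0 (limma adjusted p = 0.00021), and both calls were kept without any 1 array.

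Serpine2 encodes protease nexin-1, a secreted inhibitor of thrombin and plasminogen activators, and its course differed between the starting cultures. On the feeder start it measured 10.71, 10.60, 10.28 and 10.22 on days 0, 7, 17 and 32. On the feeder-free start it measured 9.06 on day 0, 11.03 and 11.20 on day 7, 10.60 and 10.56 on day 17, and 10.55 and 10.42 on day 32. The cultures lay farthest apart at day 0, where the feeder array was higher, and from day 7 the feeder array was the lower. The change from day 0 to day 32 was lower on the feeder start (feeder minus feeder-free −1.92 ± 0.20, limma with 8 group means, adjusted p = 2.21e-05).

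Serpinf1 encodes pigment epithelium-derived factor, a secreted antiangiogenic serpin without inhibitory activity, and it was higher on the feeder start. It measured 10.73, 9.05, 9.55 and 8.44 there on days 0, 7, 17 and 32. On the feeder-free start it measured 7.91 on day 0, 7.74 and 8.07 on day 7, 8.07 and 8.19 on day 17, and 8.03 and 7.89 on day 32. Each feeder array lay above all feeder-free arrays, which stayed near the receptor level throughout. Serpinf1 was 1.37 ± 0.28 higher on the feeder start over the 4 days (limma adjusted p = 0.00564) and 0.95 ± 0.18 higher in a fit of days 17 and 32 alone (limma adjusted p = 0.00408).

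**Figure D2:**
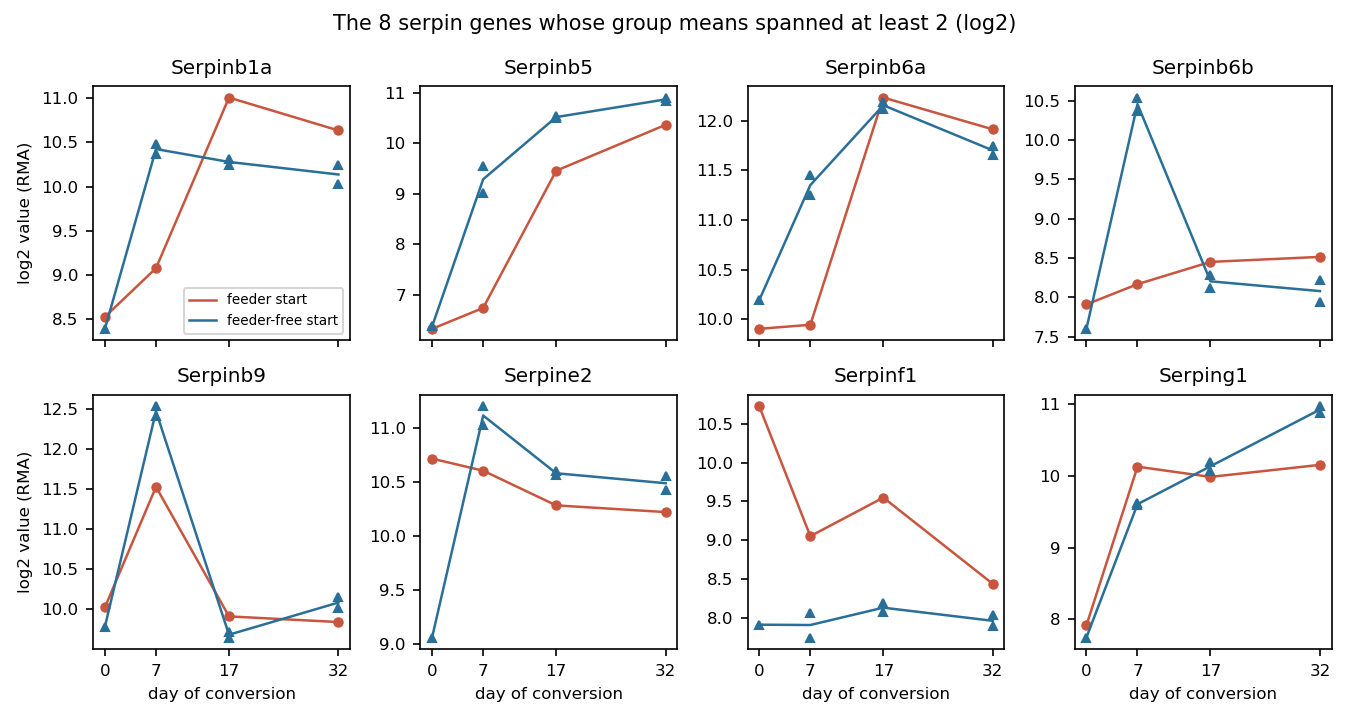
Log2 value against day of conversion (days to scale) for the 8 genes with wide spans; circles are the single feeder-start arrays, triangles the feeder-free arrays, and lines join group means. Serpinb9 and Serpinb6b peak at day 7 on the feeder-free start, Serpinb5, Serpinb6a, Serpinb1a and Serping1 end above their day 0 values in both cultures, and Serpine2 and Serpinf1 are farthest apart at day 0. The vertical scale differs between panels.

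Fibroblast markers were raised on the feeder array of day 0, on which Serpine2 and Serpinf1 were both higher than on the feeder-free array. The mean of 15 such markers was 10.16 on the feeder and 8.58 on the feeder-free array of day 0, and all 15 were higher on the feeder array. Postn, a matrix protein of fibroblasts, was at 11.79 on the feeder and 6.80 on the feeder-free array of day 0. At day 7 the mean was 9.24 on the feeder array and 8.55 and 8.48 on the feeder-free arrays, with 12 of 15 markers higher on the feeder array. At days 17 and 32 it was 8.69 and 8.59 on the feeder arrays and 8.51 to 8.55 on the feeder-free arrays, with 9 of 15 higher on each day. The feeder layer is of mouse cells, and how far the rat probes read mouse RNA is not known. At day 17 Serpinf1 measured 9.55 on the feeder array and 8.13 ± 0.08 on the feeder-free arrays (SD, n = 2). Among the 9 of 15 markers higher on that feeder array, Twist2 measured 10.23 on it and 8.60 and 8.91 on the feeder-free arrays. Prrx1 measured 9.42 on it and 8.71 and 8.55 on the feeder-free arrays. Postn was lower on it, at 6.66 against 7.02 and 6.91. Over the 15 markers the median difference at day 17, feeder minus feeder-free, was 0.02. The part of the feeder cells in the values of Serpine2 and Serpinf1 was not tested on any day.

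**Figure D3:**
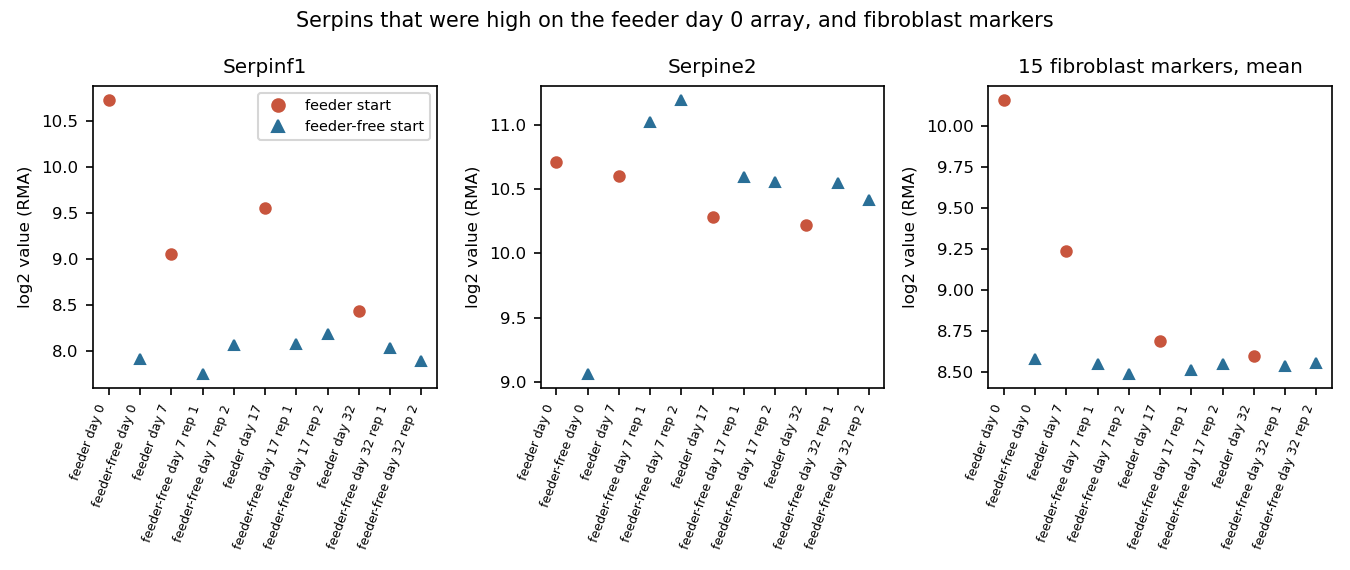
Separate panels give the log2 value of Serpinf1, of Serpine2 and of the mean of 15 fibroblast markers on each of the 11 arrays. Feeder and feeder-free arrays are marked apart. The feeder array of day 0 has the highest Serpinf1 value and the highest marker mean, 10.16. The feeder array of day 17, with a marker mean of 8.69, has the next highest Serpinf1 value. On that day 9 of the 15 markers were higher on the feeder array, with a median difference of 0.02.

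Counted over all members, few serpins were called in any interval, so each count is given beside the share of all genes called in the same direction. At day 7 over day 0, 5 of 34 members rose and 0 fell (8 at an unadjusted p under 0.05), where 6.74% of all genes rose and 9.27% fell. Besides Serpinb9 and Serping1, those that rose were Serpinb5 (1.91 ± 0.48, limma adjusted p = 0.0303), Serpinb1a (1.52 ± 0.42, limma adjusted p = 0.0411) and Serpina9, known as centerin of germinal-centre B cells (0.82 ± 0.14, limma adjusted p = 0.00737). The median change was 0.04 over members and −0.04 over all genes. The Serpinb1a call was lost without any 1 of 9 arrays and the Serpinb5 call without any 1 of the 7 feeder-free arrays, each of which left 3 members called. Without the feeder day 7 array, 8 were called, beside 30.7% of all genes in that fit. The Serpina9 call was lost without the feeder-free array of day 0.

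At day 17 over day 7, 2 members rose and 1 fell, where 9.1% of all genes rose and 3.65% fell. Serpinb5 rose by 1.73 ± 0.43 and Serpinb6a by 1.30 ± 0.30 (limma adjusted p = 0.0341 and 0.0277), and the member that fell was Serpinb9. Only Serpinb9 was called without the first feeder-free array of day 7 or day 32, without either feeder-free array of day 17, or without the feeder array of day 17. The Serpinb5 call was also lost without the second feeder-free array of day 32. With 1 of these feeder-free arrays left out, 2.51% to 7.98% of all genes were called, beside 12.8% in the main fit. At day 32 over day 17, limma called 0 members and 0% of all genes, with 5 members at an unadjusted p under 0.05. A fit of the arrays of days 17 and 32 alone, added after the data were seen, called 3 members and 5.47% of genes: Serping1 rose by 0.58 and Serpinb5 by 0.54, and Serpinb6a fell by 0.41 (limma adjusted p = 0.0359, 0.0338 and 0.0176).

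Over the whole conversion, day 32 over day 0, 5 members rose and 0 fell (6 at an unadjusted p under 0.05), where 17.4% of all genes rose and 13.7% fell. They were Serpinb5, Serping1, Serpinb1a, Serpinb6a and Serpina9, the last by 0.85 ± 0.14 with every array below the receptor level. Without the feeder array of day 0, which left 1 array on that day, more members passed, and the share of all genes in that fit is not given here. The median change was 0.10 over members and 0.05 over all genes.

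In the feeder-free arrays alone more members passed, as did more genes. At day 7 over day 0, 8 rose and 1 fell, where 16.2% of genes rose and 20.7% fell; those that rose were 7 of the 8 wide-span genes, all but Serpinf1, and Serpina9. The wide-span genes were chosen on these same arrays, so their place among those that rose follows in part from that choice. Serpina1, which encodes alpha-1-antitrypsin, fell by 0.67 ± 0.13. At day 17 over day 7, 4 rose (Serpinb5, Serpinb6a, Serping1 and Serpinb3) and 4 fell (Serpinb9, Serpinb6b, Serpine2 and Serpina9), where 16.5% of genes rose and 7.36% fell. At day 32 over day 17, 4 rose (Serping1, Serpinb9, Serpina9 and Serpina3m) and 2 fell (Serpinb3 and Serpinb6a), where 2.15% of genes rose and 5.17% fell, with sizes from 0.35 to 0.79. At day 32 over day 0, 8 rose and 2 fell (Serpina1 and Serpinb3), where 20.4% of genes rose and 19.1% fell, and Serpinb5 had the largest rise, 4.51 ± 0.17.

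Between the cultures over all 4 days, 1 member was higher on the feeder start, Serpinf1, and 5 were lower, where 15.5% of all genes were higher and 17.2% lower. Serpinb5 was lower (−1.11 ± 0.33, limma adjusted p = 0.0313). The other 4 differed by less than 0.4: Serpina6, the corticosteroid-binding globulin, by −0.28, Serpinb10 by −0.29, Serpinb12 by −0.31 and Serpinb13 by −0.37, the last 3 below the receptor level on every array. The count was 3 without the first feeder-free array of day 7, day 17 or day 32 and 2 without the feeder array of day 17. A count given here without the share of all genes is not read as a result about serpins by itself. The Serpinf1 and Serpinb13 calls were kept without any 1 array, while that of Serpinb5 was lost without 1 of 5 arrays and those of Serpina6, Serpinb10 and Serpinb12 without 1 of 7 each. In the fit of days 17 and 32 alone, 12 members and 37.4% of all genes were called. They included 2 clade A genes not called in the fits across all days, Serpina3l (−0.33, limma adjusted p = 0.0205) and Serpina5, the protein C inhibitor (−0.27, limma adjusted p = 0.0218). With the feeder arrays of days 0 and 7 left out instead, the count was also 12.

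The changes themselves differed between the cultures, which was tested in a limma fit with 8 group means where the single arrays are assumed to vary like the feeder-free pairs. For the change from day 0 to day 7, 11 of 34 members differed, beside 22% of all genes. In 7 wide-span genes the change was lower on the feeder start: the difference, feeder minus feeder-free, was −2.60 ± 0.22 for Serpinb6b, −2.51 ± 0.27 for Serpinb5, −2.17 ± 0.20 for Serpine2, −1.67 ± 0.23 for Serpinf1, −1.49 ± 0.20 for Serpinb1a, −1.19 ± 0.20 for Serpinb9 and −1.12 ± 0.20 for Serpinb6a (largest adjusted p 0.000879). Markers of cell state differed between the same arrays. At day 7 the mean of 7 hypoblast markers was 10.62 on the feeder array and 13.15 and 13.28 on the feeder-free arrays, after 9.16 on the feeder and 9.42 on the feeder-free array of day 0. The mean of 5 pluripotency markers was 12.61 on the feeder array and 11.43 and 11.52 on the feeder-free arrays of day 7. Their part in the serpin differences was not tested. Serping1, the remaining wide-span gene, was not among the 11, with changes of 2.21 on the feeder start and 1.85 on the feeder-free start.

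For the change from day 7 to day 17, 7 members differed, beside 19.7% of all genes. In Serpinb6b, Serpinb1a, Serpinb5, Serpinb6a and Serpinb9, the change was higher on the feeder start by 1.17 to 2.54, and in Serping1 and Serpina7 lower. The Serpina7 calls, in this interval and the one before, were lost without the first feeder-free array of day 7, and also without either of day 17 here and either of day 32 there. Serpinb1a thus changed by 1.93 on the feeder start and −0.15 on the feeder-free start over these days, after 0.55 and 2.04 over the first 7 days. For the change from day 0 to day 32, 3 members differed, beside 10.6% of all genes: Serpine2, Serpinf1 and Serping1, each lower on the feeder start.

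**Figure D4:**
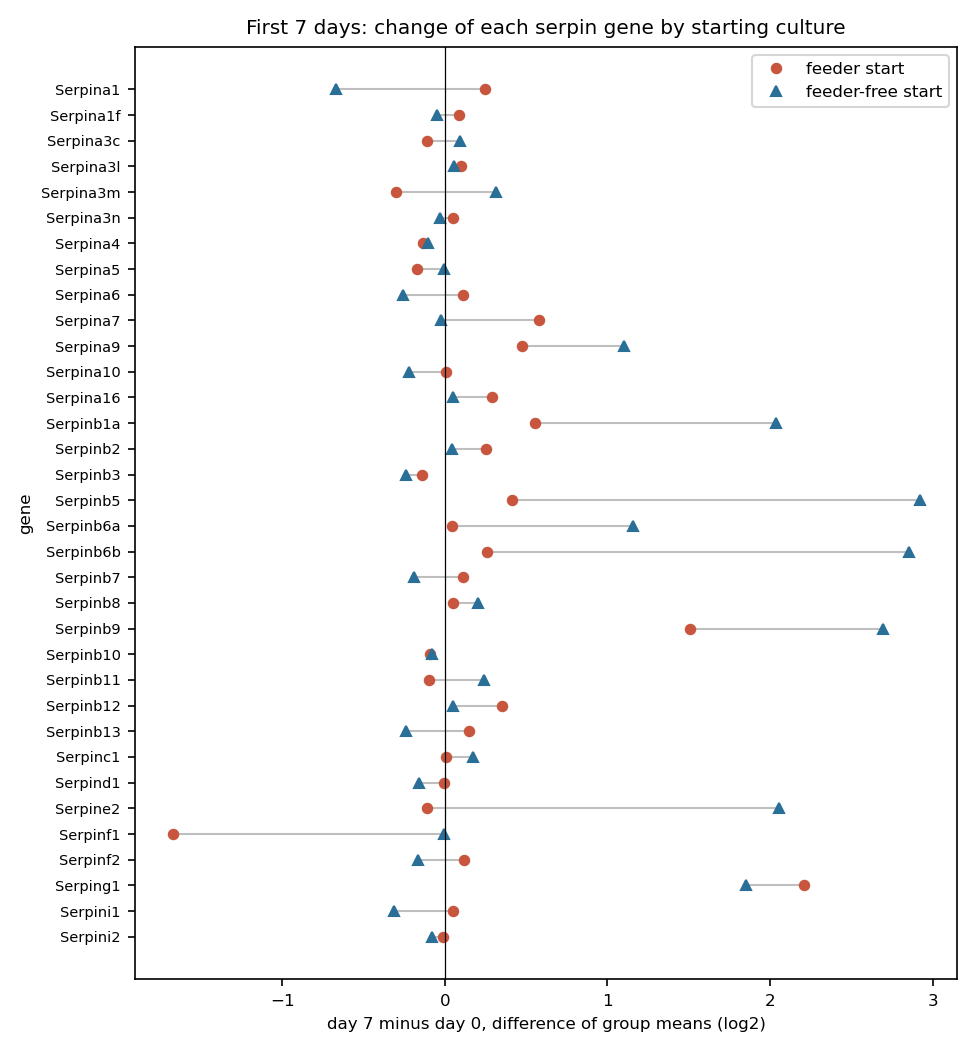
Difference of group means, day 7 minus day 0 (log2), for each of the 34 serpin genes; circles are the feeder start and triangles the feeder-free start, joined by a grey line. The 5 wide-span clade B genes and Serpine2 lie farther right on the feeder-free start, Serpinf1 lies at −1.68 on the feeder start and near 0 on the feeder-free start, and most other genes lie near 0 in both.

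The other 26 serpins showed low and flat values. Their array values ran from 5.51 to 8.93, 25 of them had spans under 1, and 19 had no group mean above the receptor level. Clade A, with liver plasma proteins such as alpha-1-antitrypsin, kallistatin and thyroxine-binding globulin, ran from 5.66 to 8.46 on all arrays, and 12 of its 13 genes sit on chromosome 6, with Serpina7 on the X. Serpina9 had the widest span of this clade: it measured 5.85, 6.33, 6.23 and 6.37 on the feeder start, and group means of 5.66, 6.76, 6.40 and 6.78 on the feeder-free start, on days 0, 7, 17 and 32. Serpinc1, which encodes antithrombin, spanned 0.18 with array values from 8.42 to 8.68. Serpinf2, which encodes alpha-2-antiplasmin, ran from 8.29 to 8.93. Serpind1, heparin cofactor II, and the clade I genes, Serpini1 of neurons and Serpini2 of pancreas, had no group mean above the receptor level.

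The proteases that these serpins meet were read from lists chosen for their roles. Of the leukocyte serine proteases, the known targets of Serpinb9, Serpinb1a and Serpinb6a, 0 of 5 passed in any comparison of days, and the largest changes at day 7 over day 0 were 0.09 for Gzmb, granzyme B, and −0.08 for Prtn3, proteinase 3. At an unadjusted p under 0.05 there was 1, Prtn3 at day 17 over day 7 (0.34 ± 0.12). Between the cultures Prtn3 was higher on the feeder start by 0.32 ± 0.09, and Cma1, a mast cell chymase, differed by −0.19 ± 0.07 (limma adjusted p = 0.0271 and 0.0488), calls lost without any 1 of 4 arrays and any 1 of 9. The values of Gzmb ran from 8.30 to 8.72 over the 11 arrays. Of the complement proteases, 1 of 4 rose by day 32, where 17.4% of all genes rose: Masp1 of the lectin pathway (0.95 ± 0.12, limma adjusted p = 0.000839). C1r and C1s, named above among the proteases that Serping1 blocks, did not pass by day 32 (−0.01 ± 0.16 and 0.24 ± 0.18). Of the lysosomal cysteine proteases, 2 of 5 rose by day 32, beside the same 17.4%, Ctsl by 1.83 and Ctsh by 1.10.

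In plasminogen activation, 3 of 6 genes rose at day 7 over day 0, beside the 6.74% of all genes: Plau, urokinase, by 2.77 ± 0.57, Plat, tissue plasminogen activator, by 1.74 ± 0.38, and Plaur, the urokinase receptor, by 1.36 ± 0.33 (limma adjusted p = 0.0153, 0.0191 and 0.0268). Without the feeder-free array of day 0, or the first of day 7, 0 of the 6 passed, and without the second of day 7, 1 did. Plau measured 7.89, 8.85, 7.45 and 7.49 on the feeder start on days 0, 7, 17 and 32. On the feeder-free start it measured 7.60 on day 0, 11.54 and 11.58 on day 7, 7.86 and 7.85 on day 17, and 7.78 and 7.83 on day 32. As with Serpinb6b, the feeder-free arrays of day 7 stood above all the others. Plau fell by 2.94 ± 0.50 at day 17 over day 7 (limma adjusted p = 0.0112), a call lost without either feeder-free array of day 17. By day 32, 2 of the 6 had risen, Plaur by 1.63 ± 0.33 and Lrp1, an endocytic receptor of serpin complexes, by 1.77 ± 0.50 (limma adjusted p = 0.0059 and 0.0269). The Lrp1 call was lost without the feeder-free array of day 0 or either of day 32.

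Of the clotting and contact genes, 2 of 9 rose by day 32, beside 17.4% of all genes, both cell-surface receptors: Thbd, thrombomodulin, by 3.87 ± 0.68 and F2r, the thrombin receptor, by 2.32 ± 0.46. F7, factor VII, rose by 0.54 ± 0.15 at day 17 over day 7 (limma adjusted p = 0.0461), a call lost without any 1 of 9 arrays. Between the cultures 4 of 9 were lower on the feeder start and 0 higher, beside 17.2% and 15.5% of all genes. They were F7 (−0.50 ± 0.11), F2, prothrombin (−0.34 ± 0.11), F11 (−0.30 ± 0.08) and Klkb1 (−0.23 ± 0.07), with limma adjusted p = 0.00947, 0.045, 0.0217 and 0.0449. F11 and Klkb1 lay below the receptor level on every array. The F2 call was lost without any 1 of 9 arrays. Of the membrane and convertase proteases, 4 of 5 rose by day 32, beside the same 17.4%: Furin, a proprotein convertase, by 2.43 ± 0.27, St14, matriptase, by 2.26 ± 0.19, Prss8, prostasin, by 1.58 ± 0.38 and Hpn, hepsin, by 0.77 ± 0.13. The largest of the 4 adjusted p-values from limma was 0.013, for Prss8, whose call was lost without the feeder array of day 32. That of F2r was lost without the feeder-free array of day 0.

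The inhibitors of other families moved in both directions. Of 12, 4 rose and 2 fell by day 32, beside the 17.4% and 13.7% of all genes. Timp2, an inhibitor of metalloproteinases, rose by 3.16 ± 0.79 and Cst3, cystatin C, by 2.73 ± 0.35. A2m, alpha-2-macroglobulin, fell by 1.68 ± 0.49. The Timp2 call was lost without the feeder-free array of day 0, and that of A2m without the feeder array of day 0, the feeder array of day 32 or the first feeder-free array of day 32. Tfpi, the tissue factor pathway inhibitor, was raised at day 7: it rose by 2.80 ± 0.49 and then fell by 3.52 ± 0.44 at day 17 (limma adjusted p = 0.00858 and 0.00392), the rise losing its call without the feeder-free array of day 0. At day 7 Tfpi stood at 11.46 on the feeder array and at 14.01 and 13.97 on the feeder-free arrays, against 9.11 to 10.27 on the arrays of the other days.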

How the data were processed

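Total RNA of 11 rat samples was hybridised to Affymetrix Rat Gene 1.0 ST arrays. The authors deposited log2 expression values; RMA is named, without options or version, in the submitters' processing notes. All columns share 1 median while quartiles differ, and the step that set it is not given in the sources used here. Of 29214 rows, 15310 carried 1 gene symbol in the platform annotation, 323 several and 13581 none; for 527 genes with several rows the one with the highest mean was kept, leaving 14506 genes.

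Groups came from the labels. limma 3.58.1 in R 4.3.3 (lmFit, eBayes) was fitted on all 11 arrays with day and culture, or with 8 group means for differences between cultures, with Benjamini-Hochberg adjustment over all genes and no filter on dim genes. The scripts were tested on simulated data. As alternatives, the dimmest 25% of genes were left out, rows of a gene were averaged, values were quantile-normalized again, eBayes was run with trend and robust, a replicate block or 8 group means entered the fit, and it was repeated on the feeder-free arrays and without each array.

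Every member was counted. Those given array by array had group means spanning at least 2 and rising above the receptor bound, which was 7.97 for 188 genes by older symbols and 8.10 for 1240 with renamed ones, with the same 8 genes under both. Members called in any of the 8 comparisons across the 11 arrays were named, as were those called in the smaller fits. Partner genes named were those called, at most the 4 with the largest change in a list. Gzmb, C1r, C1s, Cdx2, Elf5, Postn, Twist2, Prrx1 and Serpinb9d were named after their values were seen. Members and lists were chosen with earlier results of these data known. The number of arrays limits precision.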

Additional observations from a re-analysis of the deposited data

Results flagged for a closer look

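The change over the same days differed between the starting cultures in 21 instances, by a limma fit with 8 group means and adjustment over all genes. Each value is the change on the feeder start minus that on the feeder-free start (log2, ± SE), and each rests on single feeder arrays.

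From day 0 to day 7 the difference was −2.60 ± 0.22 for Serpinb6b, −2.51 ± 0.27 for Serpinb5, −2.17 ± 0.20 for Serpine2, −1.67 ± 0.23 for Serpinf1 and −1.49 ± 0.20 for Serpinb1a. It was −1.19 ± 0.20 for Serpinb9, −1.12 ± 0.20 for Serpinb6a, −0.63 ± 0.18 for Serpina9 and −0.61 ± 0.18 for Serpina3m. It was positive in 2 clade A genes, 0.92 ± 0.21 for Serpina1 and 0.60 ± 0.20 for Serpina7, whose values were at or under 8.10 on every array.

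From day 7 to day 17 it was 2.54 ± 0.21 for Serpinb6b, 2.08 ± 0.19 for Serpinb1a, 1.49 ± 0.25 for Serpinb5, 1.49 ± 0.18 for Serpinb6a and 1.17 ± 0.18 for Serpinb9. It was −0.67 ± 0.17 for Serping1 and −0.59 ± 0.18 for Serpina7. The 5 clade B genes thus had opposite signs in the 2 intervals, and the intervals share the day 7 arrays.

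From day 0 to day 32 it was −2.34 ± 0.23 for Serpinf1, −1.92 ± 0.20 for Serpine2 and −0.94 ± 0.19 for Serping1. Fibroblast markers were higher on the feeder array of day 0, which enters the first and the last set of differences, and their part in these values was not tested. No group was large enough for a test of single outlying arrays.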

How the results depend on the processing

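With 1 feeder array a day, calls depended on how the spread was estimated. Counts of serpin genes called were 5 at day 7 over day 0, 3 at day 17 over day 7, 0 at day 32 over day 17, 5 at day 32 over day 0 and 6 between cultures. With the replicate number as a block they were 3, 1, 0, 5 and 3; deviations of same-numbered arrays correlated at 0.034, −0.195 and −0.099, so the numbers do not pair the samples. With 8 group means they were 10, 9, 4, 9 and 15. The feeder-free arrays alone gave 9, 8, 6 and 10 for the comparisons of days. Without the dimmest 25% of genes, 3 differed between cultures and 7, not 11, in the day 0 to day 7 change; further quantile normalization gave 7, not 3, in the day 0 to day 32 change. Chosen after seeing the data, the fit without the feeder arrays of days 0 and 7 gave 9 at day 7 over day 0 and 12 between cultures, and days 17 and 32 alone gave 3 at day 32 over day 17 and 12 between cultures. Leaving out each array in turn gave 3 to 8, 1 to 4, 0, 5 to 8 and 2 to 9 in the order above, and 10 to 12, 6 to 8 and 3 to 4 for the 3 differences in change (main counts 11, 7 and 3), which could not be fitted without an array that is the only one of its group in that change. Under the alternatives listed in the methods, array omissions aside, 207 of 222 called serpin values kept their call and 15 lost it; without 1 array, 321 of 384 kept it and 63 lost it; under the fits chosen after seeing the data, 15 of 17 kept it and 2 lost it; 0 changed sign. For partner and marker genes, 703 of 742 kept it, 38 lost it and 1 changed sign, Klf4 between cultures (0.093 with the mean of all rows); without 1 array, 1003 of 1210 kept it and 207 lost it; under the later fits, 60 of 72 kept it and 12 lost it. The cause was not tested where a count moved, except that smaller fits use fewer arrays. The share of all genes called moved with the settings too. At day 7 over day 0 it was 16% in the main fit, 9.13% with the replicate block and 30.7% without the feeder array of day 7. A count that moved is therefore not a result about serpins by itself. Dim genes, 19 of the 34 serpins, limit what a change of 0 can show.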
